A study of Mus musculus with 6 samples.

Results

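Dyskerin and 9 further proteins of small nucleolar ribonucleoprotein particles (snoRNPs) and the nucleolus were followed in mouse leukemias that carried or lacked an intact Runx1 gene. The 10 genes were Dkc1, Nop10, Nhp2, Gar1, Nop56, Nop58, Fbl, Nolc1, Ncl and Npm1, chosen because Dkc1 was lower in arrays labelled Runx1-KO. The array carried 23 probe sets annotated to them by current symbol, of 45101 probe sets in all, and all 10 were among the 18194 genes represented by their brightest probe set. The choice used the same contrast that is described here, so the differences of these genes between the groups are a description with no test.

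Bone marrow of the C57BL/6 strain, with Runx1 intact (labelled Control) or excised (labelled Runx1-KO), had been transduced with MLL-ENL, a fusion of a histone methyltransferase with a transcription elongation factor. The cells were transplanted into congenic mice, and leukemic cells were taken from moribund recipients. Each group held 3 independent leukemias with 1 array each, and every leukemia of both groups carried MLL-ENL. The excising enzyme, the age and sex of the mice and the share of residual host cells in a sample are not given in the labels.

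The snoRNPs are particles in which a short guide RNA directs a set of core proteins to a position in another RNA. Dyskerin (Dkc1), Nop10, Nhp2 and Gar1 form the H/ACA class, which turns uridine into pseudouridine in ribosomal RNA and is also part of telomerase. Nop56, Nop58 and fibrillarin (Fbl) form the box C/D class, which methylates the ribose of ribosomal RNA. Nolc1 chaperones particles of both classes, while nucleolin (Ncl) and nucleophosmin (Npm1) are abundant nucleolar proteins of ribosome assembly. NPM1 is a recurrent mutation target in human acute myeloid leukemia, and loss of dyskerin function causes the X-linked form of dyskeratosis congenita, a bone marrow failure syndrome.

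Median intensity per array lay between 24.4 and 26.0, and all 23 probe sets were above the background limit of every array. That limit, the highest of 27 control probe sets without target, ran from 14.1 to 22.5. Runx1 signal did not separate the labels in the direction of a loss. It was 1128 to 1629 in arrays labelled Runx1-KO and 680 to 1021 in Control at its brightest probe set, and where its probe sets lie relative to the excised part is not given in the labels, so these values do not check the labels. Directions therefore refer to arrays as labelled. Sex coincided with the label, since Xist, which silences an X chromosome in female cells, stood at 1624 to 1895 in arrays labelled Runx1-KO and at 25.3 to 331 in Control. The Y-linked gene Eif2s3y stood at 3.98 to 6.31 against 638 to 707, so sex and genotype cannot be told apart. The Gapdh control probe sets at the 3' and 5' ends of the transcript gave a ratio, used to judge RNA integrity, of 7.10 in Runx1-KO 1 and 2.67 to 3.02 in the other 5 arrays. The same ratio for beta-actin did not set that array apart, at 1.11 against 1.03 to 1.10.

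Dkc1 and Nop10, direct partners in the H/ACA core, were the members with the largest differences at their brightest probe sets. Both stood near a 2-fold lower level in arrays labelled Runx1-KO, whereas the other H/ACA proteins Nhp2 and Gar1 overlapped between the groups. Of the box C/D proteins, Nop56 and Fbl were lower with groups that did not overlap, and Nop58 overlapped. At their brightest probe sets Ncl and Npm1 differed by less than their standard errors, in the opposite direction.

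At the brightest probe set of Dkc1 (1441788_s_at) the intensity was 423, 389 and 420 in Runx1-KO 1, 2 and 3 and 757, 735 and 751 in Control 1, 2 and 3. Every array labelled Runx1-KO lay well below every Control array, and the arrays within each group lay close together. The log2 difference was -0.87 ± 0.18 (moderated SE of the fit over all probe sets, n = 3 per group), a 1.82-fold lower level. This probe set carries the suffix that the manufacturer gives to probes matching several transcripts, which can belong to different genes. The same suffix marks the brightest probe sets of Nhp2, Nop56 and Fbl and the only probe set of Gar1. The other two probe sets of Dkc1 were less clear. At 1438016_at the intensity was 584, 258 and 422 in arrays labelled Runx1-KO against 517, 532 and 539 in Control, and the difference was -0.41 ± 0.32. At 1438015_at it was 395, 255 and 276 against 378, 366 and 386, with a difference of -0.31 ± 0.23. In both of these, Runx1-KO 1 lay above every Control array while Runx1-KO 2 and 3 lay below all of them. Runx1-KO 1 was the array with the high Gapdh ratio but an actin ratio near the others, and the part of RNA integrity in these values was not tested. Without that array the differences at the 3 Dkc1 probe sets were -0.89, -0.68 and -0.50, and at all 3 of them the groups did not overlap. Without Runx1-KO 2, the lowest array at all 3, they were -0.83, -0.09 and -0.19, so the size at the dimmer probe sets rested on single arrays.

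Nop10, the small protein that binds the catalytic domain of dyskerin, was lower at both of its probe sets. At 1423210_a_at, whose suffix marks probes shared by transcripts of a single gene, the intensity was 875, 882 and 891 in Runx1-KO 1, 2 and 3 and 1762, 1842 and 1559 in Control 1, 2 and 3. The arrays labelled Runx1-KO differed from each other by less than the Control arrays did, and the groups were far apart. The log2 difference was -0.96 ± 0.18, a 1.95-fold lower level. At 1423211_at the values were 343, 231 and 316 against 502, 543 and 524, again without overlap, and the difference was -0.84 ± 0.22. Leaving out any 1 array kept the brighter probe set between -1.03 and -0.91 and the dimmer between -0.95 and -0.67.

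Nhp2, which joins the core through Nop10, did not follow its partners. Its brightest probe set (1416606_s_at) read 584, 1027 and 906 in arrays labelled Runx1-KO and 872, 982 and 1016 in Control, a difference of -0.23 ± 0.27. Runx1-KO 1 was the lowest array, and without it the value was 0.02. The second Nhp2 probe set (1416605_at) had the opposite sign, at 0.15 ± 0.25. Gar1, the protein that completes the mature particle, read 1354, 1327 and 1561 against 1395, 1581 and 1568 at its single probe set, a difference of -0.10 ± 0.19 with overlapping groups.

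**Figure D1:**
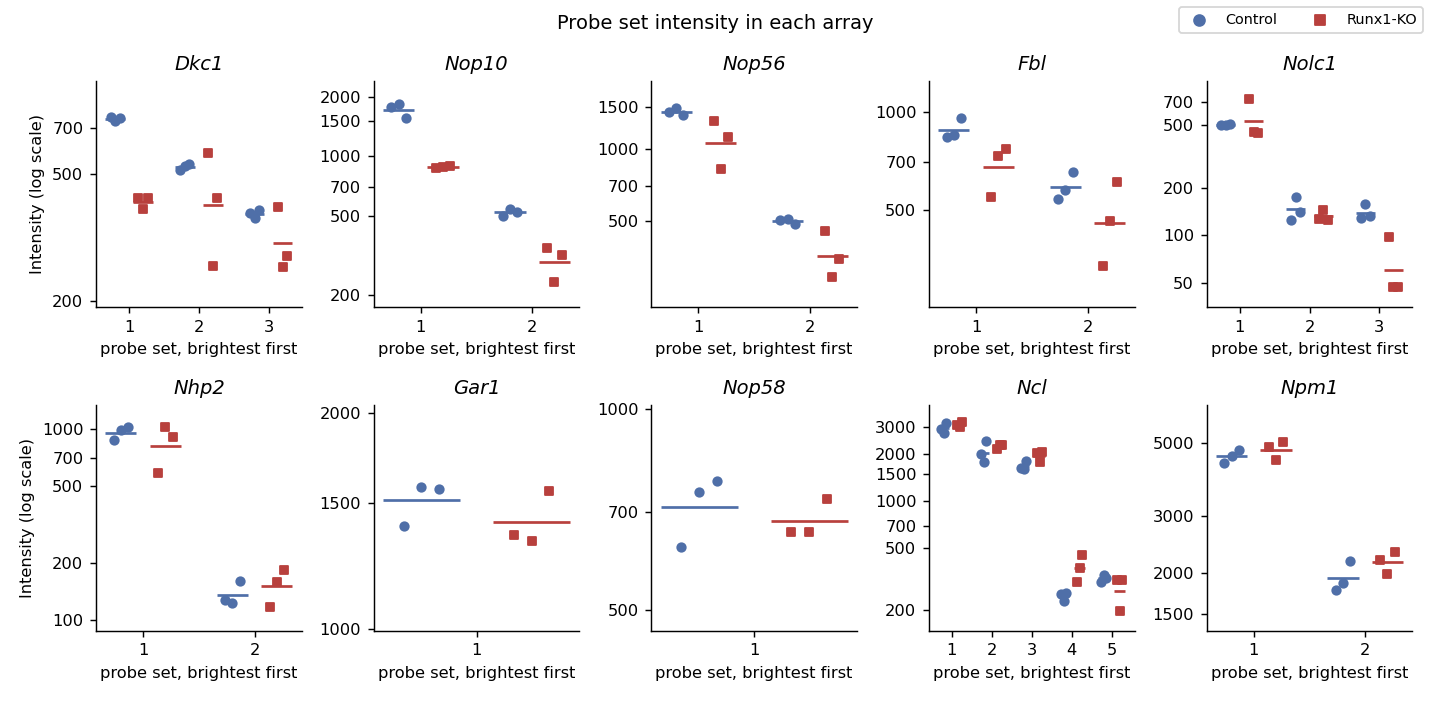
Intensity (log scale) of each probe set of the 10 genes in the 3 Control arrays (blue circles) and the 3 arrays labelled Runx1-KO (red squares), with the geometric mean of each group as a line; probe sets are ordered from the brightest. The groups stand apart at the first Dkc1 probe set, with 389 to 423 against 735 to 757, and at both Nop10 probe sets, while Gar1, Nop58 and Npm1 overlap.

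Among the box C/D proteins, Nop56 was lower at both probe sets. At 1455035_s_at it read 1308, 822 and 1124 in arrays labelled Runx1-KO and 1431, 1484 and 1389 in Control, and at 1426533_at 454, 291 and 348 against 503, 510 and 486. The groups did not overlap at either, but Runx1-KO 1 lay close to Control and Runx1-KO 2 farthest from it. The differences were -0.43 ± 0.23 and -0.48 ± 0.23, and without Runx1-KO 2 they were -0.24 and -0.33. Fbl, the methyltransferase itself, read 547, 729 and 770 against 835, 845 and 956 at 1416685_s_at, where the groups did not overlap and the difference was -0.38 ± 0.22. At its dimmer probe set (1416684_at) the values of 334, 460 and 609 against 539, 574 and 653 overlapped, with a difference of -0.37 ± 0.27. Here Runx1-KO 1 was the lowest array, and without it the differences were -0.23 and -0.15. Nop58, the paralog that pairs with Nop56 on the guide RNA, read 655, 653 and 734 against 621, 750 and 780, a difference of -0.07 ± 0.20 with overlapping groups.

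The probe sets of Nolc1 disagreed more than those of any other member. The brightest (1428869_at) read 734, 454 and 449 in arrays labelled Runx1-KO against 499, 504 and 509 in Control, so that Runx1-KO 1 lay above Control and the other two below it, and the difference was 0.07 ± 0.25. Without Runx1-KO 1 it was -0.16 and the groups did not overlap. The dimmest probe set (1428870_at), annotated to the same sequence record, read 97.6, 46.7 and 47.0 against 130, 159 and 132, with no overlap and a difference of -1.22 ± 0.34. The third (1450087_a_at) overlapped, at -0.14 ± 0.21. With the mean over the 3 probe sets, Nolc1 differed by -0.43, so its direction depended on which probe sets represented it.

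Ncl, an RNA-binding protein of the pre-ribosomal transcript, was level at its 2 brightest probe sets and varied among the others. The brightest (1415773_at) read 3112, 3023 and 3209 against 2918, 2738 and 3173, a difference of 0.08 ± 0.18 with overlap. Across its 5 probe sets the differences ran from -0.26 ± 0.25 to 0.59 ± 0.22. The highest of these, 1442404_at, was the only member probe set whose groups stood apart with the arrays labelled Runx1-KO higher, at 305, 374 and 455 against 256, 230 and 260. Npm1, the histone chaperone and ribosome export factor, overlapped at both probe sets. Its brightest (1432416_a_at) read 4837, 4419 and 5020 against 4347, 4549 and 4743, and the differences were 0.06 ± 0.18 and 0.16 ± 0.19.

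**Figure D2:**
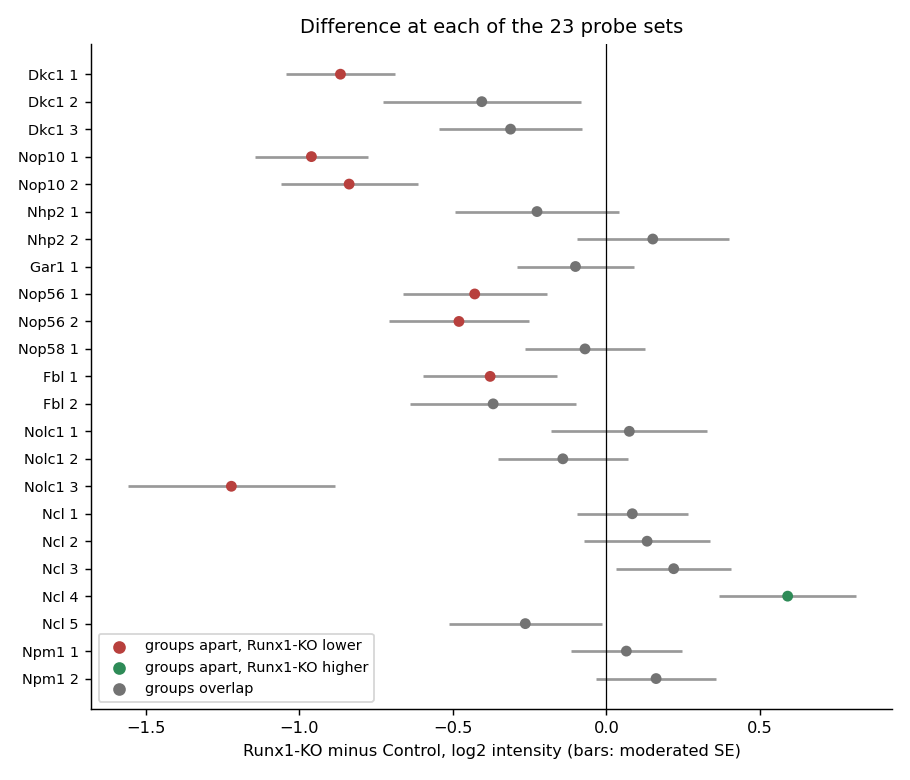
Difference in log2 intensity, Runx1-KO minus Control, at each of the 23 probe sets, numbered from the brightest within a gene, with the moderated standard error as a bar. Red points mark the 7 probe sets whose groups stood apart with the arrays labelled Runx1-KO lower, the green point the 1 that stood apart in the other direction, and grey points overlapping groups.

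Counted together, 7 of the 10 genes were lower at their brightest probe set and 3 higher, where 50.8% of all genes were lower. In 4 of the 10 genes the groups did not overlap with the arrays labelled Runx1-KO lower, against 11.7% of all genes, and in 0 of the 10 with them higher, against 9.17%. All 10 were above background on all 6 arrays, and among the 9703 such genes 5500 were lower. In that set the groups stood apart in the lower direction in 1663 genes and in the higher in 899. The median log2 difference of the 10 was -0.16, beside -0.01 over all 18194 genes and -0.06 over the 9703 genes above background on all 6 arrays. Of the 23 probe sets, 7 stood apart in the lower direction and 1 in the higher, against 11.8% and 8.64% of all probe sets with 1 gene. Without Runx1-KO 1 the lower count was 10 of 23, where 19.7% of all probe sets stood apart in that direction. In the limma fit over all genes 0 of the 10 passed an adjusted p of 0.05, as did 0.0879% of all genes, and 2 of the 10, Dkc1 and Nop10, had an unadjusted p under 0.05, as did 12.6% of all genes. With an offset of 16 before the log, Dkc1 and Nop10 passed the adjusted threshold together with 0.352% of all genes, and with a variance trend and robust fitting they passed together with 0.572%. These counts come from the contrast that chose the genes, and nothing is read from them.

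The arrays within a group differed in a gene-specific way. The median standard deviation of log2 intensity over the 10 genes was 0.11 in arrays labelled Runx1-KO and 0.10 in Control at the brightest probe sets. Over all genes above background on every array it was 0.28 and 0.18. Over all 23 member probe sets it was 0.29 and 0.10, against 0.40 and 0.29 over all probe sets with 1 gene. All 23 were above background on every array, but only 17832 of those 34958 probe sets were, so brightness differs between these sets. Runx1-KO 1 was below the mean of its group by 0.48 for Nhp2 and by 0.30 for Fbl, and above it by 0.47 for Nolc1 and by 0.30 for Nop56. Nop10 and Ncl stayed within 0.05 of the group mean on every array labelled Runx1-KO.

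**Figure D3:**
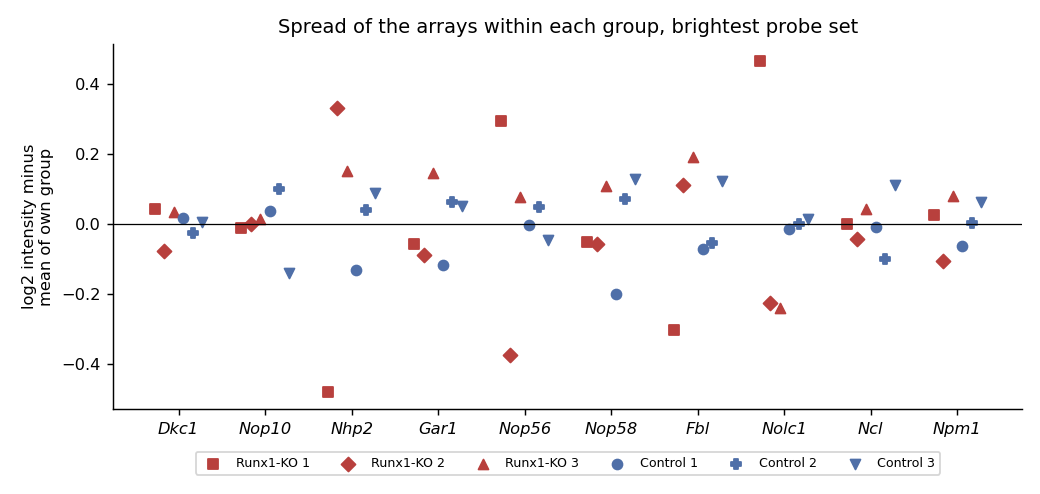
Log2 intensity of each array minus the mean of its own group, at the brightest probe set of each gene; red symbols are the arrays labelled Runx1-KO and blue symbols Control. Runx1-KO 1 (red squares) is low for Nhp2 and Fbl and high for Nolc1 and Nop56, whereas the arrays lie close together for Dkc1, Nop10, Ncl and Npm1.

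Promoter sequences were available for 8 of the 10 genes, all but Fbl and Npm1, in the RefSeq table of build GRCm38.p6. The 250 bases before the start are shown for Dkc1, Nop10 and Nop56, since these were the lower genes whose groups stood apart and which had an entry. They lie at chrX:75095604-75095853, chr2:112261676-112261925 and chr2:130274162-130274411, all on the plus strand, and read 5' to 3' with capitals marking matches to the motifs named below; the Dkc1 and Nop10 windows held no match.
Dkc1: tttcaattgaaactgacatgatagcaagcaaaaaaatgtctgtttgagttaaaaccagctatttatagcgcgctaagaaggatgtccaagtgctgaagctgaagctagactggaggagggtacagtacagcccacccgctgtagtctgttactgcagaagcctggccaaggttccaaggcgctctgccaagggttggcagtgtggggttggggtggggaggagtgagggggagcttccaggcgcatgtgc
Nop10: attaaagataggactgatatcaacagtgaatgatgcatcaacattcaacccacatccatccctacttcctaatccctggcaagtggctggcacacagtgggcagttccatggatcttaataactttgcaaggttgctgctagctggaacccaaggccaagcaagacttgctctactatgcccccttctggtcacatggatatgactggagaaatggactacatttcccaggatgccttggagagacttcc
Nop56: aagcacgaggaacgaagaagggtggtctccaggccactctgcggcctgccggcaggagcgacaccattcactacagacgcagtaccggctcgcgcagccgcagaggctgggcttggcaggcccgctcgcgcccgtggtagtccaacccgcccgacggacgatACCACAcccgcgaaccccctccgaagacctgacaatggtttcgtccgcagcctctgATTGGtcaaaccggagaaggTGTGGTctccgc

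The motifs searched on both strands were the MYC-type E-box CACGTG, the RUNX core as TGTGGT or TGCGGT, the ETS core CCGGAAG and the CCAAT box CCAAT, and no matches overlapped in Nop56. Nop56 held 2 matches to TGTGGT, which begin 88 and 12 bases before the start, and was the only one of the 8 windows with that string, found in 14.0% of 32851 promoters. It also held 1 CCAAT box, a string found in 33.8% of promoters, and the Nhp2 window held 3. The ETS core lay in the windows of Nhp2, Gar1 and Nolc1 and in 6.91% of all promoters. CACGTG (6.02% of promoters) and TGCGGT (5.10%) were in none of the 8, and the windows of Dkc1, Nop10, Nop58 and Ncl held none of the strings. The number of CG pairs was 5 in Dkc1, 0 in Nop10 and 25 in Nop56, beside a median of 6 over all promoters. A match is a description of letters and not of a bound site.

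Dkc1 was the only X-linked gene among the 10. Of 617 measured X-linked genes 321 were lower, with a median log2 difference of -0.03, beside 8846 of 17402 autosomal genes with a median of -0.01. The groups stood apart in the lower direction in 12.0% of X-linked and 11.8% of autosomal genes. The part of sex in the value of Dkc1 itself cannot be told apart from that of the label.

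Likeness to Dkc1 was taken at its brightest probe set only, over 9702 other genes above background on every array. The dimmer Dkc1 probe sets, where Runx1-KO 1 lay above every Control array, were not used. The genes most like that probe set across the 6 arrays were Prmt7 (Pearson r = 0.999), Nrp1 (0.998), Actr1a (0.997), Ccdc107 (0.996) and G3bp1 (0.995). Prmt7 is an arginine methyltransferase and G3bp1 a stress granule protein. Prmt7 read 62.6, 53.7 and 58.3 in arrays labelled Runx1-KO and 168, 153 and 155 in Control. Among the members Nop10 came first at r = 0.982, in place 26, followed by Nop56 at 0.785 (place 1303) and Fbl at 0.727 (place 1715), and Ncl was lowest at -0.494. The arrays form 2 separate groups, so r reflects the difference between the groups as well as the spread within them, and it is given with no test.

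The machinery around the snoRNPs was examined through lists chosen by function. In each of the 9 lists of ribosome and telomere factors and their MYC regulators, 0 genes passed the limma adjusted p of 0.05. The counts below use the unadjusted p under 0.05, which 7.01% of all genes passed in the lower and 5.62% in the higher direction. Of the 9703 genes above background on all 6 arrays, 872 passed it in the lower direction and 399 in the higher. Among 9 assembly factors of snoRNPs, 7 were lower, 2 of them under that threshold, and the median log2 difference was -0.27, or -0.13 without Control 2 and -0.48 without both arrays numbered 1. Ruvbl1, an ATPase of the R2TP complex that loads snoRNP core proteins, read 156, 121 and 122 in arrays labelled Runx1-KO and 248, 300 and 281 in Control, a log2 difference of -1.06 ± 0.20 (limma adjusted p = 0.178). The R2TP subunit gene Pih1d1 read 177, 190 and 193 against 238, 314 and 331 and differed by -0.64 ± 0.20 (adjusted p = 0.306), without overlap in either gene. Ruvbl2, the partner ATPase, differed by -0.49 ± 0.30 and overlapped (adjusted p = 0.536).

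Of 10 telomerase and shelterin genes, 1 was under the unadjusted threshold, and the median was -0.02. This was Terf2ip, which encodes the shelterin protein RAP1, at 108, 104 and 106 against 154, 161 and 136 (-0.50 ± 0.17, adjusted p = 0.334). The list median was -0.24 without Runx1-KO 1 and 0.15 without Runx1-KO 2. Terf1 and Tinf2, which encode shelterin proteins, differed by -0.28 ± 0.20 and 0.26 ± 0.20 with overlapping groups.

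Box C/D partners and factors of the small-subunit processome, the particle that holds the U3 snoRNP on the ribosomal transcript, were lower in 25 of 35 measured genes. Of these 4 were under the unadjusted threshold in the lower direction and 0 in the higher, and the median was -0.13. The groups stood apart in the lower direction in 10 of the 35 and in the higher in 3, against 11.7% and 9.17% of all genes. All 35 were above background on all 6 arrays. Of the 9703 such genes, 1663 stood apart in the lower direction and 899 in the higher. Pwp2, a subunit of its UTP-B complex, read 51.0, 73.7 and 80.5 against 137, 150 and 151 (-1.12 ± 0.23, adjusted p = 0.190). Utp11 differed by -0.57 ± 0.20 (adjusted p = 0.342) and Nol11 by -0.55 ± 0.21 (adjusted p = 0.357), both without overlap. The list median was -0.24 without Runx1-KO 1 and -0.06 without Runx1-KO 2. Large-subunit assembly factors were lower in 20 of 29 genes, 6 of them under the threshold and 0 higher, with a median of -0.14. Nop16, Noc3l and Bop1 differed by -0.73 ± 0.23 (adjusted p = 0.305), -0.86 ± 0.27 (adjusted p = 0.309) and -0.60 ± 0.20 (adjusted p = 0.320), each without overlap. The groups stood apart in the lower direction in 8 of the 29 genes, against 11.7% of all genes, and in the higher in 1, Pes1, against 9.17%. All 29 were likewise above background on all 6 arrays. Pes1 read 602, 479 and 508 against 382, 457 and 478 (0.27 ± 0.20, adjusted p = 0.602).

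RNA polymerase I subunits and ribosomal DNA factors were split, with 8 of 16 lower, 2 under the threshold in the lower direction and 0 in the higher, and a median of 0.00. The lower genes included the subunit gene Polr1e (-0.73 ± 0.24, adjusted p = 0.320) and the terminator-binding factor gene Ttf1 (-0.56 ± 0.23, adjusted p = 0.396). Polr1a, which encodes the largest subunit, read 254, 316 and 309 against 246, 202 and 209 and stood apart in the higher direction (0.42 ± 0.19, adjusted p = 0.429). Host genes of snoRNAs, whose introns carry the guides, had 7 of 17 lower, 0 under the threshold in either direction and a median of 0.04. The least p values there were those of Snhg12 (0.32 ± 0.20), Snhg4 (0.40 ± 0.26) and Snhg11, which was above background on 4 of 6 arrays, all overlapping. Stand-alone pseudouridine synthases and ribosomal RNA methyltransferases had 5 of 11 lower, 0 under the threshold and a median of 0.01, with Trub1 (0.38 ± 0.36), Dimt1 (-0.19 ± 0.31) and Rrp8 (-0.18 ± 0.32) first by p. Further nucleolar chaperones and granular proteins had 6 of 7 lower, 0 under the threshold and a median of -0.10, which was -0.04 without Runx1-KO 2 and -0.18 without both arrays numbered 1, with Mki67, also a cell cycle gene, at -0.44 ± 0.20, Nop9 at -0.31 ± 0.19 and Surf6 at 0.27 ± 0.18.

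The MYC family, whose transcription factors drive many ribosome assembly genes, had 4 of 6 genes lower, 0 under the threshold and a median of -0.15, which was 0.14 with the mean over probe sets. Myc read 412, 90.8 and 217 in arrays labelled Runx1-KO and 434, 284 and 313 in Control (-0.75 ± 0.55, adjusted p = 0.611), with Runx1-KO 2 the lowest array. Mycn read 767, 613 and 584 against 1013, 765 and 824 (-0.41 ± 0.21, adjusted p = 0.478), with a slight overlap. Mga, which encodes a MAX-binding repressor, differed by -0.15 ± 0.17 and stood apart.

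**Figure D4:**
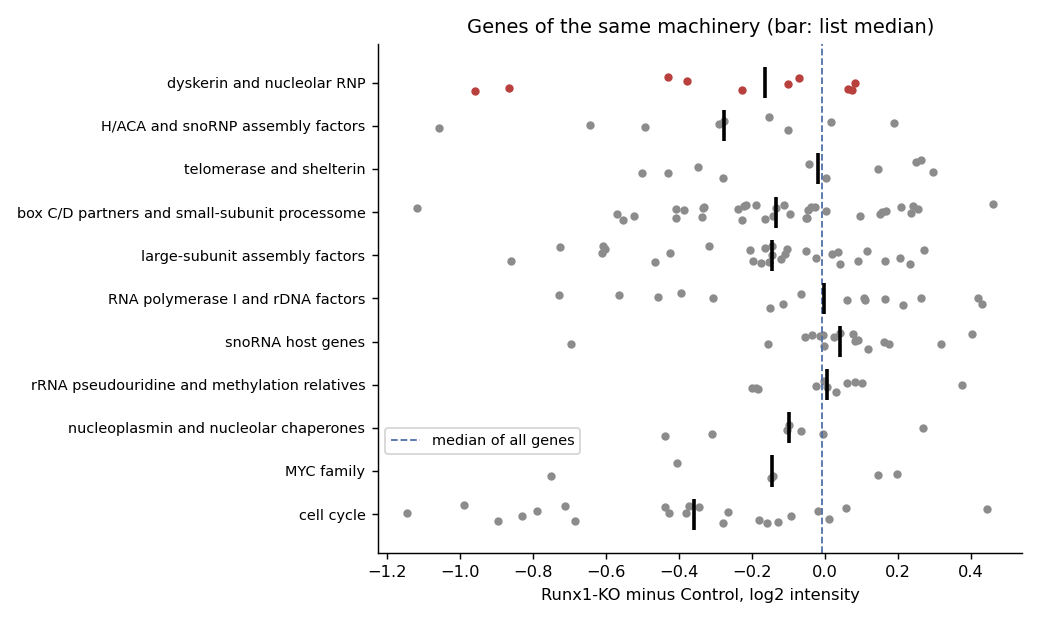
Difference in log2 intensity, Runx1-KO minus Control, of each measured gene (points) in the dyskerin and nucleolar RNP set (red) and in lists of related machinery (grey), with the list median as a black bar and the median of all genes, -0.01, as a dashed line. Medians run from -0.36 for cell cycle genes to 0.04 for snoRNA host genes, and Dkc1 and Nop10 are the leftmost red points.

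Cell cycle genes were lower beside Dkc1 and Nop10. Of 22 measured, 19 were lower and 5 were under the unadjusted threshold in that direction, with a median of -0.36, or -0.11 without Runx1-KO 2. Their summed intensity was 17396 to 24625 in arrays labelled Runx1-KO and 26186 to 27997 in Control. The mitotic kinase gene Plk1 read 24.3, 11.8 and 24.7 against 48.1, 38.9 and 40.7, with Runx1-KO 2 below background, so no size is given for it. The cyclin genes Ccnb2 and Ccna2 differed by -0.71 ± 0.22 and -0.69 ± 0.24, and 0 of the 22 passed over all genes. Cell type markers also differed with the label, although 0 of them passed over all genes. All 10 mature neutrophil genes were higher, 8 under the unadjusted threshold, with a summed intensity of 16390 to 18993 against 8421 to 13162. Of the monocyte and macrophage genes 7 of 8 were lower, 6 under the threshold, with sums of 3049 to 3317 against 5401 to 6781. Megakaryocyte genes summed to 518 to 789 against 204 to 274, T and NK cell genes to 107 to 143 against 125 to 219, B cell genes to 143 to 281 against 188 to 251, and stromal genes to 127 to 194 against 108 to 293. Among the T and NK cell genes 6 of 7 were lower. Cd3e and Cd5 were below background on every array labelled Runx1-KO, whereas Nkg7 read 35.7, 57.6 and 58.3 there and 19.1, 18.6 and 4.11 in Control, above background on 2 of 3 Control arrays (adjusted p = 0.296), and Cd2 was above it on all 6 arrays. Erythroid genes summed to 978 to 1248 against 828 to 5931, the highest value being that of Control 1, and without that array Dkc1 differed by -0.86 and Nop10 by -0.94. All 7 measured erythroid genes were lower, 0 of them under the unadjusted threshold. Only Tfrc was above background on all 6 arrays, at 918, 1003 and 1196 against 1971, 963 and 744. Progenitor genes such as Kit, Hoxa9 and Mpo summed to 12213 to 12913 against 8268 to 14021, with 7 of 8 higher. Cd34 had the opposite sign, at 46.1, 67.0 and 57.5 against 69.4, 245 and 189, without overlap (-1.39 ± 0.49, adjusted p = 0.339). In bulk samples fewer cells of a type and less RNA per cell cannot be told apart, and the part of cell makeup and of proliferation in the values of Dkc1 and Nop10 was not tested.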

How the data were processed

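Per the labels' protocols, total RNA of 6 leukemias went through a spin column and its cDNA was fragmented and biotin-labelled with NuGEN Ovation reagents for a 1-colour mouse array. The deposited values were linear intensity values, already on a common scale with a floor of 1; the authors' probe summary, background correction and normalization are not given in the labels. The number of arrays limited the precision.

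Intensities were taken to log2 and fitted with limma 3.58.1 (lmFit, eBayes) in R 4.3.3, two-sided, with Benjamini-Hochberg adjustment and no filter. Calls come from the fit over 18194 genes, each at its brightest probe set. Standard errors of the 10 genes come from the fit over all 34958 probe sets with 1 symbol in the platform annotation, and those of other genes from the gene fit. The fit was tested on simulated data. Replicates were independent leukemias.

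The members and lists were chosen with earlier results of these data known. From each functional list the 3 genes of lowest p were named, and genes like Dkc1 were the 5 of highest correlation. Pes1 was named besides, as the large-subunit factor that stood apart in the higher direction. Genes named from the marker lists were chosen after their values were seen. Listed genes without a probe set of their own symbol, or of an older symbol, were left out. Alternatives covered the probe set rule, normalization, dim genes, the log offset, the variance model, array weights, the threshold, the replicate number as a block and arrays left out.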

Additional observations from a re-analysis of the deposited data

How the results depend on the processing

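Counts over all genes depended on the settings. The lower levels of Dkc1 and Nop10 kept their sign in all 16 alternatives run for them, but many of these could not turn it. The filter on dim genes, the variance model and the replicate block left both differences unchanged. Groups that do not overlap also keep their sign when an array is left out or an offset is added, so nothing is read from the kept sign. The fit gave 6 genes higher and 10 lower. Fitted over all 34958 probe sets with 1 gene, 12 probe sets were higher and 18 lower. That was 0.0858% of the probe sets, beside 0.0879% of the genes in the main fit. The gene counts were 14 and 20 over genes above background on at least 3 arrays, and 25 and 39 with an offset of 16. They were 39 and 65 with a variance trend and robust fitting, 27 and 44 with array weights, and 17 and 19 at an adjusted p under 0.1. They were 0 and 0 without both arrays numbered 1. Leaving out 1 array at a time gave 1 gene higher each time and 1 to 2 lower. With the replicate number as a block, 0 genes were higher and 0 lower. Same-numbered arrays deviated from their group means with correlations of -0.09 to 0.04, and differently numbered arrays with -0.11 to 0.10. With 3 arrays per group this check is weak, and the labels name no pairing. Dkc1 differed by -0.41 as the median over its probe sets and by -0.53 with their mean. The median of the 10 genes, -0.16, was -0.24 with the mean over probe sets and -0.11 after quantile normalization, and ran from -0.24 to -0.12 with 1 array left out. The sign of Nhp2 turned without Runx1-KO 1, and that of Nolc1 in 5 of its 16 alternatives. List medians kept their sign in all 16 alternatives for snoRNP assembly, the small-subunit processome, large-subunit assembly, snoRNA hosts, nucleolar chaperones and the cell cycle. For these lists the filter on dim genes, the variance model and the replicate block left the median unchanged, so nothing is read from that count. The sign was kept in 13 for telomerase and shelterin, 9 for RNA polymerase I, 10 for RNA modification enzymes and 14 for the MYC family. There were 3 arrays per group and no detection calls. The differences of Nhp2, Gar1, Nop58, Nolc1, Ncl and Npm1 at their brightest probe sets lay within their standard errors. Of the 5 Ncl probe sets 3 lay beyond theirs, as did the dimmest Nolc1 probe set.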
